A study of Homo sapiens with 48 samples.

Results

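Definitive endoderm cultures were compared with the undifferentiated human embryonic stem cells (hESC) of the same line. The comparison rests on 4 endoderm and 4 hESC libraries, chosen by their sample labels, out of the 48 libraries of the series. All were made from WA09 (also called H9), an established hESC line whose genotype is labelled normal. Endoderm cultures had been treated for 5 days with the STEMdiff Definitive Endoderm Kit, whose composition the labels do not give, and the hESC cultures are labelled as untreated. Mesoderm cultures (STEMdiff Mesoderm Induction Medium, 5 days) and ectoderm cultures (6 days with 100 nM of the BMP receptor inhibitor LDN-193189 and 2 µM of A83-01, which inhibits activin and Nodal receptors) had 4 libraries each and served as further reference groups, while the 32 embryoid body libraries were not used here. The labels do not say whether the libraries of a group came from separate cultures, so the p-values below measure only the spread between these libraries, which may be technical. RNA was measured by RASL-Seq, in which pairs of probes annealed side by side on captured polyadenylated RNA are ligated, amplified and sequenced, and 1113 probes for 452 genes were analysed here. Reads were summed over the probes of a gene.

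Definitive endoderm is the germ layer from which the gut tube, liver, pancreas and lungs form. It arises at the primitive streak under strong Nodal or activin signalling, helped by WNT signals, and is marked by the transcription factors SOX17, FOXA2 and GATA6 and by loss of the pluripotency factors. Nodal signalling turns on genes for its own secreted inhibitors, LEFTY1 and LEFTY2, so that it is limited by feedback. Because each library is an extract of a whole culture, a change in the share of a cell type and a change in RNA per cell cannot be told apart in any value below.

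Library totals ranged from 1773969 to 2801704 reads in hESC and from 2982467 to 4227384 in endoderm. A single gene took much of the endoderm sequencing: LEFTY2 held 26.9%, 27.9%, 30.2% and 26.2% of all reads in endoderm replicates 1 to 4, against at most 0.00653% in any hESC library. Values are therefore given as CPM (counts scaled to a common library size) of a library size scaled by TMM, a method that weighs down extreme genes, and the scaling factors were 0.71 to 0.80 in endoderm and 0.99 to 1.14 in hESC. Probes differ in efficiency, so levels are compared between cultures and not between genes. A count of 0 in a library allows up to 3 reads, which corresponds to 0.987 to 1.48 CPM in hESC and 0.885 to 1.41 CPM in endoderm. Reads are PCR products without molecular identifiers, so this limit and the intervals below cover counting error only.

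The labels were checked against the markers of each layer. Endoderm carried 2307 ± 199 CPM of SOX17 and 280 ± 77.6 CPM of FOXA2 (SD, n = 4 each), whereas CXCR4, a surface marker of endoderm, was not analysed here. The mesoderm marker T (brachyury) stood at 76.02 ± 9.76 CPM in endoderm and 1523 ± 121 CPM in mesoderm cultures, and HAND1 at 10.8 ± 2.58 against 384 ± 34.6 CPM (SD, n = 4 each). Of the ectoderm markers, SOX1 was at 0 in every endoderm library and PAX6 was at 154 ± 12.6 CPM, against 837 ± 72.8 CPM in ectoderm cultures (SD, n = 4 each). The cardiac marker TNNT2 reached at most 0.470 CPM in an endoderm library. In hESC, NANOG stood at 1731 ± 143 and SOX2 at 993 ± 35.8 CPM (SD, n = 4 each), but the single POU5F1 probe gave only 7.51 ± 2.34 CPM there (SD, n = 4), a low level already in hESC.

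Of 387 genes that passed a filter on low counts, 331 (85.5%) differed between endoderm and hESC when the Benjamini-Hochberg adjusted p of the quasi-likelihood test in edgeR had to be below 0.05, and 334 (86.3%) had an unadjusted p below 0.05. Among them 180 (46.5%) were higher and 151 (39.0%) lower in endoderm. The values of the 2 groups did not overlap for 320 genes (82.7%). Called changes of 1 or more on the log2 scale, in either direction, made up 241 genes (62.3%), and 33 genes were higher (8.53%) and 24 lower (6.20%) by 5 or more. On a panel where most genes pass, the size of a change and the direction of a group of genes tell more than its count of calls. The median log2 fold change over all tested genes was 0.21, and this centre moved with the scaling. With upper quartile factors it was -0.23 (141 genes higher, 187 lower), with library totals alone -0.27 (140 higher, 187 lower) and with scaling on 3 reference genes 1.01 (237 higher, 105 lower), a shift of the centre by -0.43, -0.48 and 0.80, and the direction of changes smaller than these shifts depends on the scaling.

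LEFTY2, the gene with the most endoderm reads, belongs to the Nodal pathway. NODAL, the ligand, was at 7.16, 11.2, 9.39 and 8.02 CPM in hESC replicates 1 to 4 and at 243, 262, 241 and 241 CPM in endoderm. It rose by 4.77 ± 0.13 on the log2 scale (SE of the difference, as throughout; adjusted p 1.51e-16, edgeR), and the lowest endoderm library lay far above the highest hESC library. TDGF1 (Cripto), the co-receptor that Nodal needs, was already abundant in hESC at 2384, 2116, 2109 and 2015 CPM and reached 7045, 7549.6, 7480.1 and 6678 CPM in endoderm, a log2 fold change of 1.74 ± 0.07 (adjusted p 5.22e-06, edgeR). GDF3, a related ligand of the same receptors that is expressed in pluripotent cells, went the other way, from 226, 266, 264 and 273 to 50.3, 48.3, 54.9 and 44.3 CPM, and fell by 2.38 ± 0.09 on the log2 scale (adjusted p 7.28e-13, edgeR).

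The inhibitors of the pathway rose far more than the ligand. LEFTY1 was at 75.2, 81.96, 72.6 and 85.9 CPM in the hESC libraries and at 30985, 30664, 31182 and 31196 CPM in the endoderm libraries, which lay close together. Its log2 fold change was 8.62 ± 0.06 (adjusted p 1.39e-09, edgeR). LEFTY2 was at 50.1, 60.2, 47.9 and 52.99 CPM in hESC and 349974, 372907, 423463 and 327149 CPM in endoderm, with a log2 fold change of 12.76 ± 0.11 (adjusted p 9.79e-07, edgeR). These 2 genes are near-identical copies that lie close together on chromosome 1 (GRCh38, LEFTY1 at 225886282 to 225889146 and LEFTY2 at 225936603 to 225941220), and reads could be shared between their probes. The ratio of LEFTY2 to LEFTY1 reads was 0.617 to 0.735 in the hESC libraries and 10.5 to 13.6 in the endoderm libraries, so the counts of the pair did not keep a single ratio. All 3 probes of each gene changed alike, by 7.99 to 8.48 on the log2 scale for LEFTY1 and by 12.16 to 12.79 for LEFTY2. In all, 4 of the 5 Nodal pathway genes tested rose and 1 fell, with a median log2 fold change of 4.77 against 0.21 over all genes. Of all tested genes 46.5% rose and 39.0% fell.

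**Figure D1:**
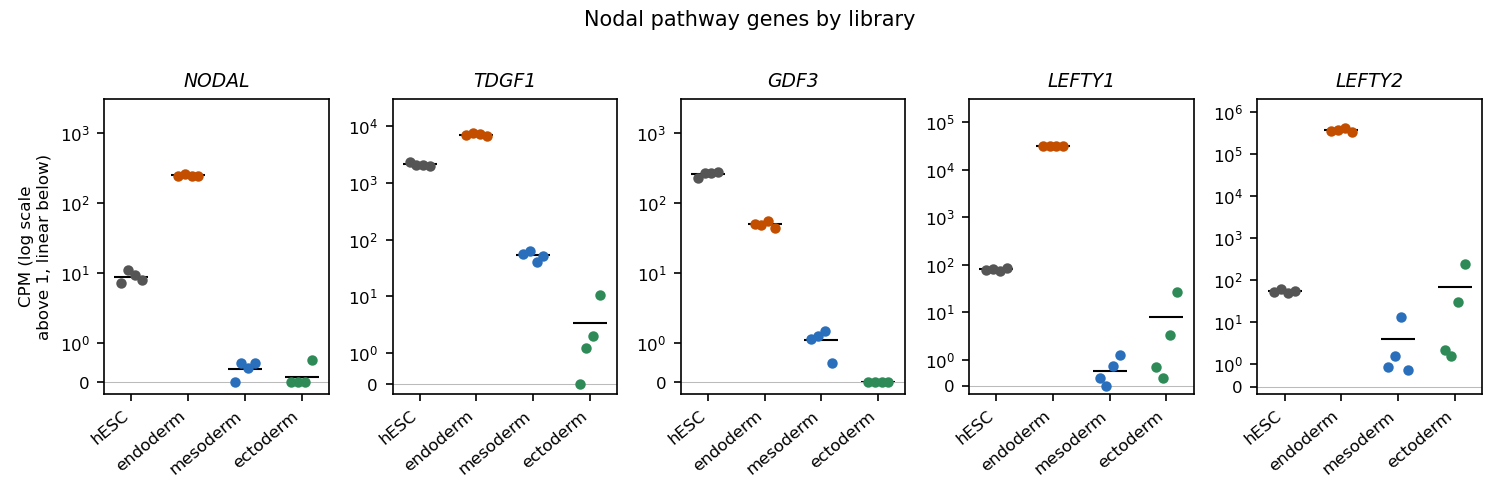
CPM of 5 Nodal pathway genes (vertical axis, log scale above 1 and linear below) in each of 4 libraries of hESC, endoderm, mesoderm and ectoderm; points are libraries and lines are group means. LEFTY1, LEFTY2 and NODAL sit higher in all 4 endoderm libraries than in any other library, while GDF3 lies between hESC and the other 2 cultures.

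Transcription factors of endoderm made up the next group. SOX17, a master regulator of this layer, had no read in any hESC library and stood at 2393, 2213, 2085 and 2538 CPM in endoderm, at least 1846-fold higher than a floor of 3 reads per library. GATA6, an early endoderm regulator, had 1 read in all hESC libraries together and 3521, 3617, 4009 and 3332 CPM in endoderm, a ratio of 35172 with a 95% counting interval of 6312 to 1389261. EOMES, which acts in the primitive streak upstream of SOX17, had 2 hESC reads in all and 327, 293, 606 and 254 CPM in endoderm, a ratio of 1718 (95% counting interval 475 to 14188). Without hESC replicate 2, which held the EOMES reads and the GATA6 read, the fitted log2 fold changes moved from 10.55 to 13.09 and from 14.62 to 16.39. Endoderm replicate 3 held the highest EOMES value, but each of the other 3 was also above all hESC libraries.

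FOXA2, a pioneer factor that opens chromatin in endoderm, was low in hESC at 2.78, 2.96, 0.494 and 2.67 CPM and rose to 256, 253, 393 and 217 CPM, a log2 fold change of 6.88 ± 0.43 (adjusted p 5.37e-13, edgeR). LHX1, a LIM homeobox factor of the anterior streak, went from 3.18, 2.30, 2.47 and 1.34 to 731, 694, 647 and 682 CPM and rose by 8.17 ± 0.20 on the log2 scale (adjusted p 9.28e-20, edgeR). OTX2, a homeobox factor of anterior endoderm as well as of forebrain, went from 20.7, 30.6, 27.7 and 23.2 to 1307, 1244, 1331 and 1319 CPM, a log2 fold change of 5.66 ± 0.13 (adjusted p 2.96e-21, edgeR). HHEX, a marker of foregut and liver precursors, was not silent in hESC: it had 289, 319, 296 and 289 CPM there and 2757, 2790.2, 2553 and 2832 CPM in endoderm, a log2 fold change of 3.20 ± 0.05 (adjusted p 4.91e-17, edgeR). In mesoderm and ectoderm cultures HHEX was lower than in hESC, at 5.78 ± 2.26 and 3.96 ± 1.51 CPM (SD, n = 4 each).

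Smaller values completed the group. FOXA1, a relative of FOXA2, was at 56.6 ± 6.33 CPM in hESC and 107 ± 5.46 in endoderm (SD, n = 4 each) and rose by 0.92 ± 0.09 (adjusted p 3.03e-06, edgeR). SOX7, a factor of extraembryonic endoderm and vessels, did not pass the test: it was at 3.58, 3.95, 2.47 and 8.02 CPM in hESC and 5.75, 3.61, 3.76 and 7.97 CPM in endoderm, with overlapping groups (log2 fold change 0.28 ± 0.39, adjusted p 0.517, edgeR). Thus 8 of the 9 endoderm transcription factors tested rose, none fell and SOX7 was not called, with a median log2 fold change of 6.88. Over all tested genes 46.5% rose and 39.0% fell, with a median of 0.21.

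Among surface and secreted products of endoderm, the natriuretic peptide gene NPPB stood out. It encodes a secreted peptide better known from heart muscle. No hESC library held an NPPB read, and the endoderm libraries stood at 15059.5, 14198, 13339.9 and 16537 CPM, at least 11830.5-fold higher. EPCAM and CDH2 both rose: EPCAM, an epithelial surface protein, went from 2262 ± 27.01 to 6861 ± 82.5 CPM, and CDH2, N-cadherin, from 587 ± 24.6 to 7306 ± 745 CPM (SD, n = 4 each). Their log2 fold changes were 1.60 ± 0.01 (adjusted p 1.13e-13) and 3.64 ± 0.08 (adjusted p 2.19e-20, edgeR). ALB, which encodes albumin of the later liver, was called higher (adjusted p 0.000416, edgeR) but near the floor. It stood at 5.03, 2.53, 5.63 and 2.07 CPM in endoderm, a ratio of 8.87 (95% counting interval 3.21 to 34.1). Endoderm replicates 1 to 4 held 14, 7, 12 and 7 ALB reads. Mesoderm held 10, 14, 15 and 14 and ectoderm 4, 12, 14 and 8, so these low counts were not particular to endoderm. AFP had no read in any library of the 4 cultures.

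Genes of later gut, liver and pancreas had varied levels. NKX2-1, a factor of lung, thyroid and ventral forebrain, had 1 hESC read in all and 40.6, 47.6, 46.95 and 37.8 CPM in endoderm, a ratio of 419.5 (95% counting interval 74.9 to 16606), with no read in mesoderm or ectoderm. Its fitted log2 fold change of 8.22 became 10.01 without hESC replicate 1, the only hESC library with a read. CDX2 of the hindgut was at no more than 2.35 CPM in an endoderm library (adjusted p 0.055, edgeR), against 978 ± 192 CPM in mesoderm cultures (SD, n = 4). Several alternatives called CDX2 higher than in hESC, among them DESeq2 (adjusted p 0.0102). In edgeR the replicate block and scaling on reference genes did so too (adjusted p 0.0147 and 0.00412). SST, which encodes somatostatin, was not called (adjusted p 0.239, edgeR). CYP2B6, a liver cytochrome P450, stood at 191, 185, 175 and 199 CPM in hESC and 136, 117, 188 and 101 CPM in endoderm and was not called either (adjusted p 0.154, edgeR), but it was called lower with upper quartile factors and with library totals alone (adjusted p 0.0219 and 0.00681, edgeR). At least 10 reads in every library, the replicate block and the 8 libraries alone gave the same call (adjusted p 0.0452, 0.0153 and 0.0071, edgeR). The CYP2B6 probes went apart: those at positions 537 and 1308 of the transcript fell by 4.10 and 7.82 on the log2 scale, and that at position 1873 had a log2 fold change of -0.26. Of the 5 tested genes of this list 2 rose, NKX2-1 and ALB, and 3 were not called, and with scaling on reference genes 4 rose. Over all tested genes 46.5% rose and 39.0% fell in the main fit.

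The WNT pathway genes on the panel changed strongly, mostly upward. FZD5, a WNT receptor, was at 362, 371, 379.9 and 391 CPM in hESC and 25379, 24564, 25644 and 29728 CPM in endoderm, a log2 fold change of 6.13 ± 0.07 (adjusted p 2.51e-23, edgeR). FZD7, another Frizzled receptor, rose from 486 ± 13.2 to 4015 ± 199 CPM (SD, n = 4 each), whereas FZD3 fell from 90.8 ± 5.91 to 31.4 ± 2.53 CPM (SD, n = 4 each), by 1.53 ± 0.07 (adjusted p 1.37e-09, edgeR). The secreted WNT antagonists SFRP1 and FRZB rose as well. SFRP1 went from 2892 ± 83.1 to 13281 ± 849 CPM (log2 fold change 2.20 ± 0.05) and FRZB from 27.1 ± 3.13 to 1022 ± 47.4 CPM (log2 fold change 5.24 ± 0.09; SD, n = 4 each). WLS, the carrier that brings WNT proteins to the cell surface and no member of the list, was at 5.97, 3.62, 5.43 and 4.45 CPM in hESC and 877, 878, 977 and 813 CPM in endoderm, a log2 fold change of 7.52 ± 0.15 (adjusted p 4.85e-21, edgeR). Of the 5 tested list members 4 rose and 1 fell, with a median log2 fold change of 3.05 and no adjusted p above 1.37e-09 in edgeR. Over all tested genes 46.5% rose and 39.0% fell, with a median of 0.21.

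**Figure D2:**
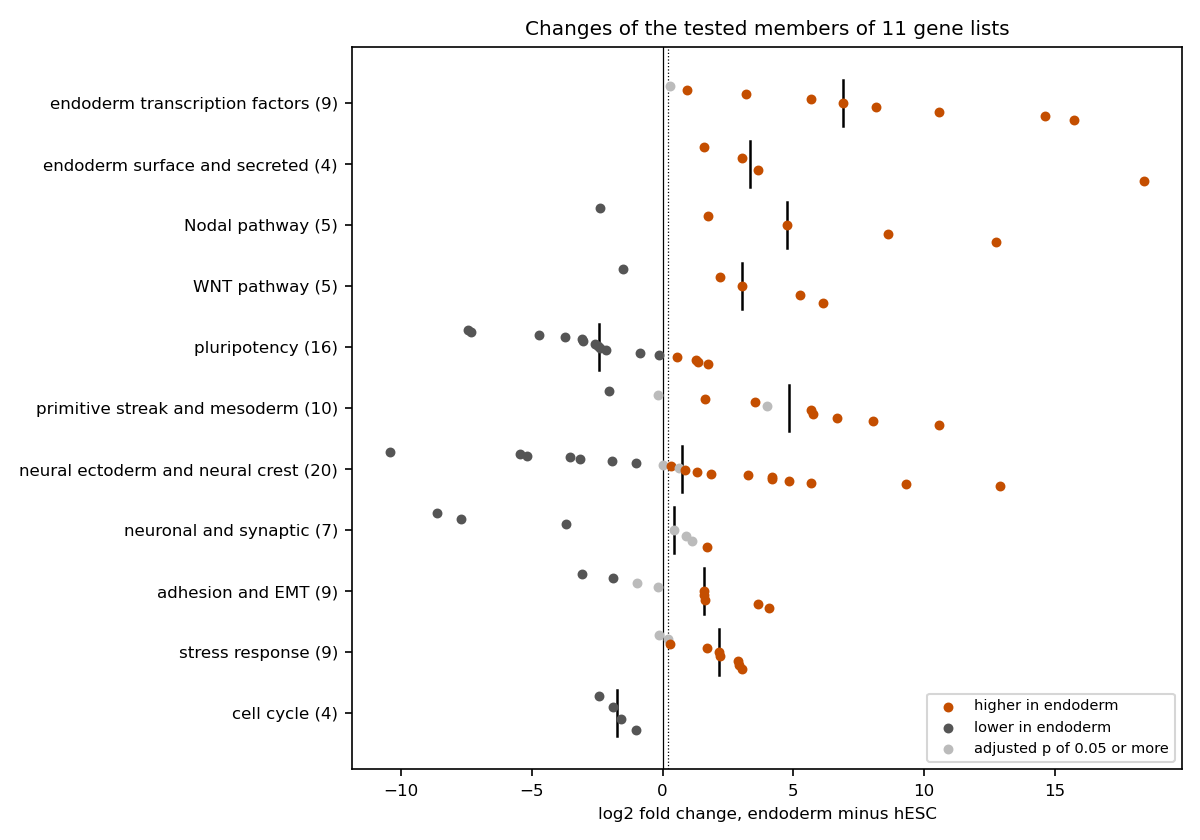
Log2 fold change, endoderm minus hESC, of the tested members of 11 gene lists, with the number tested in brackets; each point is a gene (orange called higher, dark called lower, light not called), the short line is the list's median and the dotted line is the median of 0.21 over all tested genes. Endoderm factors, Nodal and WNT genes lie mostly to the right, pluripotency and cell cycle genes mostly to the left, and the 2 neural lists spread to both sides; points of genes with 0 reads in a whole group depend on the prior count.

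The pluripotency network did not fall as a whole. Of 16 genes tested, 12 fell and 4 rose, and the median log2 fold change was -2.43. Over all tested genes 39.0% fell and 46.5% rose, with a median of 0.21. SOX2, a core factor, went from 1032, 982, 948 and 1009 CPM in hESC to 9.34, 7.58, 0.939 and 5.61 CPM in endoderm and fell by 7.33 ± 0.60 on the log2 scale (adjusted p 1.76e-17, edgeR). NANOG, another core factor, went from 1725, 1885, 1773 and 1542 to 57.1, 69.6, 53.5 and 77.9 CPM and fell by 4.73 ± 0.14 (adjusted p 3.35e-19, edgeR). What remained of NANOG was still above the 3.95 ± 0.847 CPM in mesoderm and 0.101 ± 0.203 CPM in ectoderm cultures (SD, n = 4 each). POU5F1 had no read in any endoderm library, at least 6.74-fold lower than in hESC, where its probe was already low.

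The other pluripotency genes went in both directions. The germ-cell and early embryo genes DPPA2 and DPPA4 fell by 3.74 ± 0.14 and 2.57 ± 0.05, FOXD3 by 3.06 ± 0.13, the surface protein gene CD9 by 3.08 ± 0.11, the DNA methyltransferase gene DNMT3B by 2.48 ± 0.08 and the zinc finger gene ZFP42 (REX1) by 2.16 ± 0.07 on the log2 scale. LIN28B fell by 0.86 ± 0.06, a call lost with scaling on reference genes, while its paralog LIN28A, which like it blocks maturation of let-7 microRNAs, was higher at 6557 ± 251 against 4466 ± 246 CPM (SD, n = 4 each; adjusted p 8.6e-08, edgeR), a call lost with upper quartile factors and with library totals alone. SALL4, a zinc finger factor, rose by 1.36 ± 0.11 and PODXL, a surface sialomucin, by 1.27 ± 0.06 (adjusted p 4.33e-12 and 8.27e-14, edgeR); the fourth was TDGF1, described above. L1TD1, an RNA-binding protein gene, stood at 2861, 2879.7, 3110 and 2679 CPM in endoderm, overlapping its hESC values, with a log2 fold change of -0.14 ± 0.05 (adjusted p 0.041, edgeR). This call was lost without each of hESC replicates 2 and 3 and endoderm replicates 1 and 4 (adjusted p 0.0604, 0.0878, 0.0671 and 0.111, edgeR) and turned to 0.64 with scaling on reference genes. Mesoderm and ectoderm cultures held 228 ± 14.5 and 277 ± 13.3 CPM of L1TD1 (SD, n = 4 each).

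Primitive streak and mesoderm genes lay below the mesoderm cultures in some cases and above them in others. EOMES, described above, was higher in endoderm than in mesoderm. T (brachyury), a streak factor, went from 1.19, 1.65, 1.98 and 0.891 CPM in hESC to 66.5, 73.6, 89.7 and 74.3 CPM in endoderm, a log2 fold change of 5.69 ± 0.19 (adjusted p 2.65e-16, edgeR). HAND1, of lateral mesoderm and trophoblast, had no hESC read and 11.5, 8.30, 9.39 and 14.2 CPM in endoderm, at least 8.67-fold higher. PDGFRA, a growth factor receptor of mesoderm and of extraembryonic endoderm, went from 0, 0.329, 0.988 and 0.445 to 42.4, 48.7, 47.4 and 43.4 CPM, a ratio of 111 (95% counting interval 43.1 to 409), and its fitted log2 fold change of 6.66 was 7.25 without hESC replicate 3. Mesoderm cultures held 12.4 ± 1.84 CPM of PDGFRA (SD, n = 4). ISL1, a LIM homeobox factor, had a ratio of 64.3 (95% counting interval 17.5 to 536) and stood at 13.3 ± 2.56 CPM in endoderm and 6.96 ± 2.27 CPM in mesoderm (SD, n = 4 each). The homeobox gene MSX1 rose by 1.60 ± 0.29 to 7.16 ± 1.29 CPM, far below its 4116 ± 348 CPM in mesoderm (SD, n = 4 each). KDR, a receptor of vascular growth factors that hESC also carry, fell by 2.03 ± 0.06 on the log2 scale. SNAI2 and CDX2 were not called in the main fit. FOXF1 was called on at most 3 reads in an endoderm library, with an adjusted p of 0.0181 (edgeR) that became 0.0805 without endoderm replicate 4. With EOMES, 7 of the 10 tested genes rose, 1 fell and 2 were not called, while 46.5% of all tested genes rose and 39.0% fell. The median log2 fold change of the list was 4.84, or 2.36 with genes at 0 in hESC set to their bound.

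Markers of heart and trophoblast moved with these genes only in part. Apart from NPPB, HAND1 and ISL1, the cardiac list held MYH6, a myosin of heart muscle, with at most 0.470 CPM in an endoderm library (adjusted p 0.324, edgeR), and TNNT2, which was lower by a ratio of 17.5 (95% counting interval 4.45 to 151); its fitted log2 fold change of -3.83 was -4.43 without endoderm replicate 2. NPPA and CGA, which mark heart muscle and trophoblast, were not analysed here, and of the 3 trophoblast and extraembryonic genes tested HAND1 and PDGFRA rose and SOX7 was not called. Summed over the whole cardiac list, NPPB included, CPM ranged from 2.23 to 4.28 in hESC and from 13366 to 16562 in endoderm, while the trophoblast list summed to 3.46 to 8.46 CPM in hESC and 59.7 to 65.5 CPM in endoderm. The part of other cell types in these values was not tested.

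Neural genes went in both directions. LMX1A, a homeobox factor of the roof plate and of dopaminergic precursors, had no hESC read and 325, 334, 325 and 306 CPM in endoderm, at least 258-fold higher and above the 139 ± 16.01 CPM of ectoderm cultures (SD, n = 4). PAX6, of forebrain and eye, had 2 reads in 1 hESC library and none in the others and stood at 141, 171, 154 and 151 CPM in endoderm, a ratio of 757 (95% counting interval 209 to 6252), and its fitted log2 fold change of 9.29 was 11.77 without hESC replicate 4. SOX10, a neural crest factor, rose by 4.18 ± 0.38 to 64.9 ± 11.99 CPM and SIX3 of the anterior forebrain by 1.83 ± 0.05 to 152 ± 9.14 CPM (SD, n = 4 each). ZIC2 and TUBB3 rose by 0.32 ± 0.03 and 0.84 ± 0.15, but with upper quartile factors and with library totals alone ZIC2 was at -0.13 and -0.18 and the TUBB3 call was lost.

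The opposite held for another set of neural genes. OLIG1, a factor of oligodendrocyte precursors, was at 42.6, 68.8, 64.7 and 54.8 CPM in hESC and had no read in any endoderm library, at least 51.8-fold lower. MAP2, a microtubule protein of dendrites, fell by 5.19 ± 0.40, the zinc finger factor ZIC1 by 3.14 ± 0.16 and DCX, of migrating neurons, by a ratio of 12.4 (95% counting interval 5.74 to 31.9). OLIG2 and the intermediate filament gene NES fell by 1.95 ± 0.20 and 1.03 ± 0.09, and SOX1 was at 1.81 ± 0.706 CPM in hESC (SD, n = 4) and at 0 in endoderm, at least 1.62-fold lower. Of 20 genes of neural ectoderm and neural crest tested, 11 rose, 7 fell and 2 were not called, while 46.5% of all tested genes rose and 39.0% fell. The median log2 fold change of 0.74, or 0.16 with genes at 0 in a group set to their bound, stands beside 0.21 over all genes. PAX3 and NR2F1 were called higher on at most 1.08 and 1.44 CPM in an endoderm library, near the level that 3 reads give, and the PAX3 call (adjusted p 0.039, edgeR) was lost in 6 of the 8 fits that left out 1 library (adjusted p 0.0513 to 0.235). Summed over the whole list, neural genes stood at 4436 to 5072 CPM in hESC and 7283 to 8287 CPM in endoderm. Both the 11 genes that rose and this sum include OTX2, described above with the endoderm factors. The sum also depends on the efficiency of each probe.

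Several neuronal and synaptic genes that hESC express were lower. SYT6, a synaptotagmin that helps vesicles fuse, was at 128, 116, 129.9 and 127 CPM in hESC and 0.359, 0.721, 0 and 0 CPM in endoderm, a ratio of 459 downward (95% counting interval 157 to 2230), and its fitted log2 fold change of -8.64 was -9.72 without endoderm replicate 2. PPP1R1B, the gene for the phosphatase regulator DARPP-32, went from 205, 239.9, 202 and 214 to 0.719, 1.08, 0.939 and 1.18 CPM and fell by 7.70 ± 0.11 on the log2 scale (adjusted p 8.61e-20, edgeR). Synaptophysin, SYP, fell by 3.69 ± 0.50 (4.29 without endoderm replicate 4), and the cell adhesion gene NCAM1 was the only member of the list called higher, at 93.1 ± 10.2 against 28.8 ± 4.001 CPM (SD, n = 4 each). NRCAM, SST and GAD1 were not called, which leaves 1 of 7 tested genes higher and 3 lower. Over all tested genes 46.5% were higher and 39.0% lower. With scaling on reference genes NRCAM, SST and GAD1 were called higher too (adjusted p 3.59e-05, 0.0337 and 0.0362, edgeR).

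The largest decreases by rule also included 3 of the 4 metallothionein genes on the panel. Metallothioneins are small cysteine-rich proteins that bind zinc, copper and cadmium, and their genes are switched on by the zinc sensor MTF1, which binds metal response elements in their promoters. MT1X was at 865, 1383, 1099 and 1472 CPM in hESC and 6.47, 4.69, 4.70 and 5.31 CPM in endoderm, MT1F at 818, 1047, 849 and 1006 and 7.55, 5.05, 4.23 and 6.79 CPM, and MT1G at 228, 313, 238 and 325 and 0.359, 0.721, 0.470 and 2.07 CPM. Every endoderm library was below the lowest hESC library for each of them. The log2 fold changes were -7.81 ± 0.20, -7.26 ± 0.19 and -8.06 ± 0.34 (adjusted p 5.63e-16, 7.92e-21 and 6.51e-17, edgeR), and that of MT1G was -8.94 without endoderm replicate 4. MT2A, the fourth gene, went from 389.8, 585, 462 and 529 to 8.27, 2.89, 5.16 and 10.03 CPM and fell by 6.17 ± 0.38 on the log2 scale (adjusted p 5.4e-17, edgeR). SLC30A1, a zinc exporter whose gene MTF1 also regulates, fell by only 0.65 ± 0.10, and this change turned to 0.13 with scaling on reference genes. The 4 metallothionein genes were joined into a group after their values were seen, each has a single probe on the panel, and the MT1 copies are similar enough that reads could be shared between them.

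The metallothionein genes lie together on chromosome 16, and the promoters of 2 of them are shown because the whole group moved in 1 direction. The sequences are the 250 bases before the start of the gene in RefSeq (GRCh38.p14, plus strand), written 5′ to 3′, with each match to the core of a metal response element, searched as TGCACNC and TGCGCNC on both strands, in capitals. They cover chr16:56608334-56608583 for MT2A and chr16:56682220-56682469 for MT1X.
MT2A: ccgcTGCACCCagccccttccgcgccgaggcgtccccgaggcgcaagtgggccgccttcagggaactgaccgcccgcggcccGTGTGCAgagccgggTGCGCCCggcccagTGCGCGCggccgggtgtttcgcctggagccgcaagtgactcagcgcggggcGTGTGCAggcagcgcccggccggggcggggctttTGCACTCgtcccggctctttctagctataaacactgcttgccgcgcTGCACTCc
MT1X: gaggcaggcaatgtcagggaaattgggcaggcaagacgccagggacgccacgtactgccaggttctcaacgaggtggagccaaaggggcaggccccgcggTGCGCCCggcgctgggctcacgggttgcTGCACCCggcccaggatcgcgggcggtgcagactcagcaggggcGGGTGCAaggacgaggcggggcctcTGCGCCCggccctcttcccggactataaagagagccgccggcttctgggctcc
The MT2A promoter held 7 matches and the MT1X promoter 4. Of 35116 RefSeq promoters of the same length, 24.8% held at least 1 match, 0.370% at least 4 and 0.0313% at least 7. A match is a description of the letters and no measurement of binding. MT1F and MT1G had no entry in the table used.

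**Figure D3:**
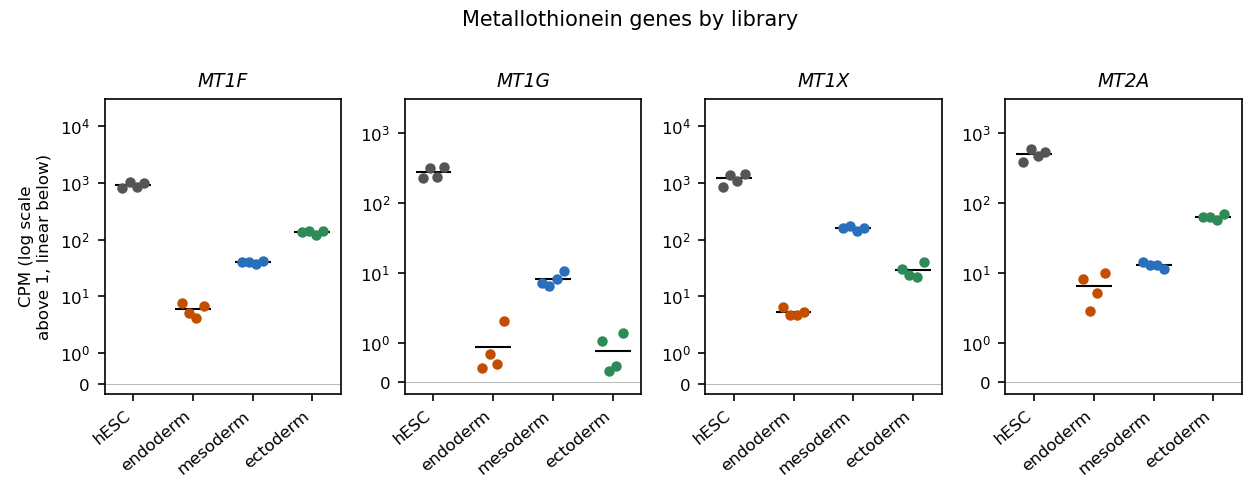
CPM of the 4 metallothionein genes (vertical axis, log scale above 1 and linear below) in each library of hESC, endoderm, mesoderm and ectoderm; points are libraries and lines are group means. All 4 genes are highest in the 4 hESC libraries and stand between 0.359 and 10.03 CPM in the endoderm libraries.

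The other large decreases came from genes of varied function that hESC express. LECT1 (CNMD), which encodes the cartilage protein chondromodulin, was at 766, 934, 828 and 863 CPM in hESC and 4.31, 0.721, 0.939 and 0.885 CPM in endoderm, with a log2 fold change of -8.91 ± 0.43 (adjusted p 1.5e-16, edgeR) that was -9.90 without endoderm replicate 1, the highest of the endoderm libraries. GBX2, a homeobox factor of the hindbrain border, fell by 7.06 ± 0.27, OLFML3, a secreted olfactomedin-like protein gene, by 6.76 ± 0.34 (7.35 without endoderm replicate 2), EFEMP1, an extracellular matrix gene, by 6.59 ± 0.20 and NR5A2, a nuclear receptor of pluripotent cells and liver, by 6.26 ± 0.32 on the log2 scale. LCK, a kinase of T cells that hESC also carry, APLN, which encodes the peptide apelin, and CAPN6, a calpain-like gene, dropped to at most 3 reads in any endoderm library. Their ratios were 232 (95% counting interval 78.97 to 1127), 215 (59.05 to 1779.9) and 138 (46.7 to 670.1), and the fitted log2 fold change of APLN moved from -7.44 to -9.83 without endoderm replicate 4. Every one of the 15 largest decreases had an adjusted p of 7.43e-12 or less in edgeR.

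Increases outside these groups included 2 genes that inactivate small hormones. CYP26A1, the enzyme that breaks down retinoic acid, was at 212, 241, 229 and 242 CPM in hESC and 18586, 18911, 17654 and 17727 CPM in endoderm, a log2 fold change of 6.30 ± 0.05 (adjusted p 1.24e-12, edgeR), against 0.236 ± 0.285 CPM in mesoderm and 17.4 ± 11.2 CPM in ectoderm cultures (SD, n = 4 each). DIO3, the deiodinase that inactivates thyroid hormone, had no hESC read and 110, 113, 105 and 114 CPM in endoderm, at least 88.3-fold higher. The adjusted p of the 15 largest increases did not exceed 9.79e-07 in edgeR.

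FGF and BMP pathways had few genes on the panel. DUSP6, a phosphatase gene that reads out FGF and ERK signalling, fell from 914, 879.8, 866 and 810 to 87.7, 84.4, 92.5 and 80.5 CPM, by 3.33 ± 0.06 on the log2 scale (adjusted p 1.77e-19, edgeR). SPRY2, another feedback gene of this pathway, had a log2 fold change of 0.16 ± 0.04 (adjusted p 0.0333, edgeR) that turned negative with upper quartile factors and with library totals alone (-0.29 and -0.33). ID1, a direct target of BMP signalling, fell by 1.34 ± 0.09 from 41.4 ± 2.76 to 16.5 ± 1.96 CPM (SD, n = 4 each), MSX1 rose, and the signal transducer gene SMAD1 was not called (adjusted p 0.785, edgeR).

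Of 9 tested genes of cell adhesion and of the epithelial to mesenchymal transition, 5 rose and 2 fell. Among all tested genes 46.5% rose and 39.0% fell. The median log2 fold change of the list was 1.60, against 0.21 over all genes. VIM, the intermediate filament of mesenchymal cells, went from 279 ± 20.1 to 4668 ± 323 CPM, the epithelial keratin gene KRT18 from 1619.6 ± 233 to 4931 ± 763 CPM and the laminin gene LAMB1 from 541 ± 17.2 to 1638 ± 69.02 CPM (SD, n = 4 each). With CDH2 and EPCAM these are the 5 that rose. CD24, a surface glycoprotein gene of hESC, fell by 1.91 ± 0.08, as did CD9, while SNAI2 and CD44 stood at no more than 2.36 CPM in an endoderm library and were not called (adjusted p 0.738 and 0.204, edgeR).

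All 4 cell cycle genes tested were lower in endoderm, as were 39.0% of all tested genes. The proliferation marker MKI67 went from 659.9, 639.5, 673 and 615 to 312, 335, 317 and 307 CPM and TOP2A, the topoisomerase of dividing cells, from 3026, 2402, 2694 and 2303 to 805, 905, 923 and 798 CPM. MYC fell by 1.90 ± 0.06 and the cell cycle inhibitor gene CDKN1A (p21), a target of p53, by 2.43 ± 0.44 on the log2 scale. The median of the 4 log2 fold changes was -1.75, with adjusted p-values of at most 4.47e-10 in edgeR. For MKI67, whose log2 fold change was -1.02 ± 0.04, the call was lost with scaling on reference genes, where it was -0.24 (adjusted p 0.104).

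In the main fit 46.5% of all tested genes rose and 39.0% fell, with a median log2 fold change of 0.21. Of 9 stress response genes tested, 7 rose, none fell and 2 were not called, with a median log2 fold change of 2.16. With upper quartile factors 6 rose and 3 fell, with library totals alone 6 rose and 2 fell, and with scaling on reference genes all 9 rose. The chaperones of the endoplasmic reticulum HSPA5 (BiP) and HSP90B1 (GRP94) went from 192 ± 17.5 to 1430.4 ± 427 CPM and from 3214 ± 175 to 14410.4 ± 1103 CPM (SD, n = 4 each). HSPA5 was highest in endoderm replicate 3, at 2062 CPM against 1154 to 1319 CPM in the other endoderm libraries, and its log2 fold change of 2.90 ± 0.20 was 2.66 without it (adjusted p 4.93e-06 and 2.04e-05, edgeR). DDIT3 (CHOP) rose by 3.05 ± 0.12 and GADD45A by 2.92 ± 0.04 on the log2 scale. NQO1, HMOX1 and TXNRD1, of the oxidant response, rose by 2.21 ± 0.06, 1.68 ± 0.12 and 0.28 ± 0.05, the last reversed with upper quartile factors and with library totals alone. ATF4 and GDF15 were not called (adjusted p 0.0752 and 0.141, edgeR), but ATF4 was called lower with upper quartile factors (-0.60, adjusted p 1.88e-07), with library totals alone and without each of hESC replicates 3 and 4 and endoderm replicates 2 and 4 (-0.17 to -0.33, adjusted p 0.000904 to 0.0435), and higher with scaling on reference genes (0.65, adjusted p 0.000134). ATF4 was also called lower with no filter, with at least 10 reads in every library and with the replicate block (adjusted p 0.0168, 0.000213 and 0.0321, edgeR). The same held for the 8 libraries alone and, under TMM, with LEFTY1 and LEFTY2 left out (adjusted p 0.0165 and 0.000463, edgeR).

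Immune genes were mixed. IFITM1, an interferon-induced membrane protein gene, rose from 29732, 26844, 24241 and 27419 CPM in hESC to 71223, 74951, 75363 and 72897 CPM in endoderm, a log2 fold change of 1.44 ± 0.06 (adjusted p 1.49e-13, edgeR). IDO1, which breaks down tryptophan, fell by 2.83 ± 0.35 from 115 ± 12.9 to 15.98 ± 6.76 CPM (SD, n = 4 each), and LCK fell as described. HLA-C rose by 0.51 ± 0.12, a call lost with upper quartile factors and with library totals alone, and HLA-B was not called (adjusted p 0.249, edgeR). Of the 6 genes tested 2 rose and 2 fell, against 1 and 4 with upper quartile factors and with library totals alone and 4 and 2 with scaling on reference genes. Over all tested genes 46.5% rose and 39.0% fell in the main fit, so both directions were common on this panel. The 3 reference genes measured did not move together: ACTB rose by 0.68 ± 0.09, while GAPDH fell by 1.65 ± 0.06 and PGK1 by 1.38 ± 0.13 on the log2 scale.

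The comparison with the other directed cultures shows which of these genes were higher in endoderm than in all 3 other groups. Endoderm shared its 4 libraries in all 3 comparisons, which are given side by side. Against mesoderm 322 of 387 genes (83.2%) were called, 165 higher (42.6%) and 157 lower (40.6%), and against ectoderm 335 (86.6%), 167 higher (43.2%) and 168 lower (43.4%), in edgeR with Benjamini-Hochberg adjustment. Called higher in all 3 comparisons were 96 genes, and 70 were called lower in all 3. Ordered by the smallest of the 3 log2 fold changes, the first 8 were LEFTY2, SOX17, NPPB, LEFTY1, NKX2-1, EOMES, TBR1 and FOXA2, each with an adjusted p of at most 1.04e-06 in every comparison (edgeR). The order rests on fitted values, which depend on the prior count where a group has few or no reads, as for SOX17, NPPB, NKX2-1, EOMES, TBR1 and FOXA2 in at least 1 comparison.

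LEFTY2 exceeded mesoderm by 16.74 ± 0.76 and ectoderm by 12.37 ± 1.59 on the log2 scale, and the ectoderm libraries ranged from 1.504 to 236 CPM. Ectoderm replicate 4 held 833 LEFTY2 reads, against 5 to 73 in the other ectoderm libraries. It was also highest for LEFTY1 (95 reads against 1 to 8), NPPB (111 against 20 to 29) and CYP26A1 (120 against 26 to 41). This library raised the ectoderm means of these genes. SOX17 stood at 0.278 ± 0.557 CPM in mesoderm and 0.984 ± 1.48 CPM in ectoderm cultures, NPPB at 4.57 ± 1.65 and 13.98 ± 11.7, and EOMES at 1.81 ± 1.46 and 0.430 ± 0.675 (SD, n = 4 each). NKX2-1 had no read in either. TBR1, a T-box factor of cortical neurons related to EOMES, had no read in hESC or ectoderm and 1 in mesoderm, and stood at 8.99, 10.8, 9.86 and 11.8 CPM in endoderm, at least 8.30-fold higher than in hESC. FOXA2 exceeded mesoderm by 6.49 ± 0.47 on the log2 scale and had 1 read in all ectoderm libraries together.

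**Figure D4:**
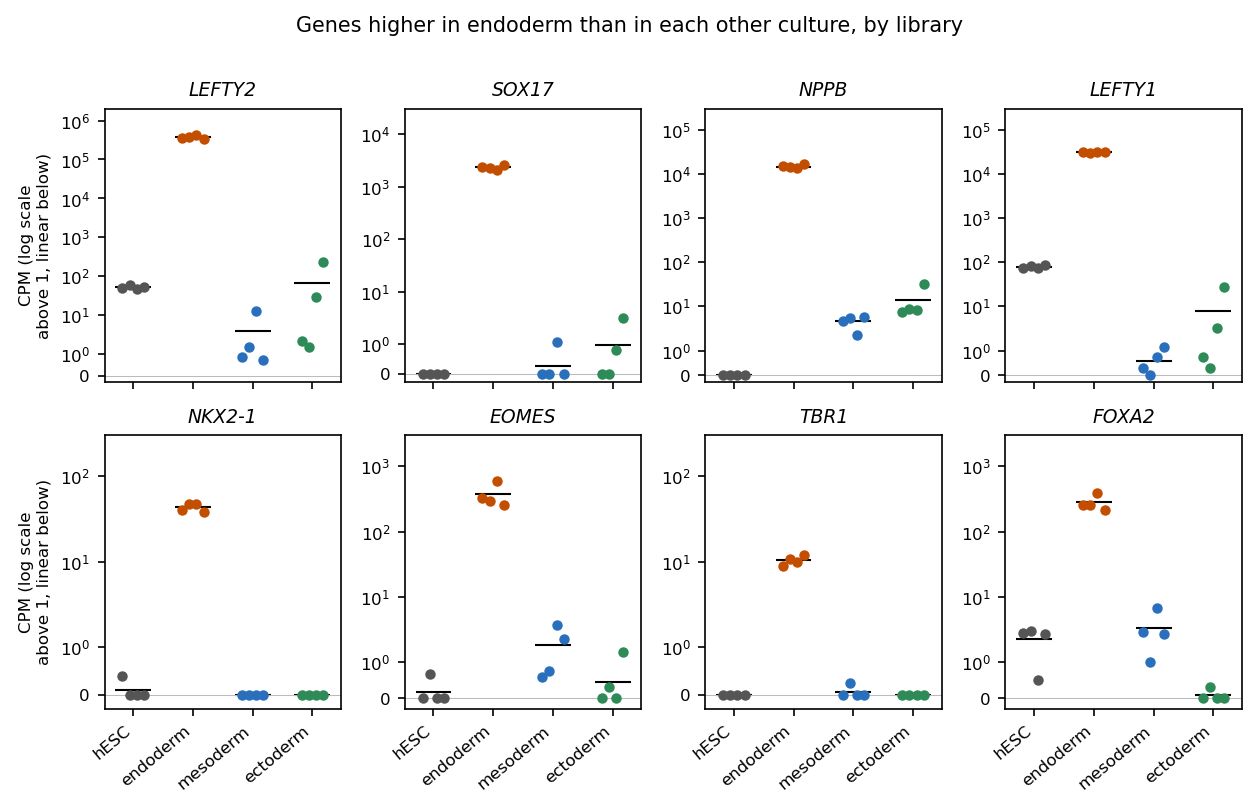
CPM (vertical axis, log scale above 1 and linear below) of the 8 genes with the largest smallest difference between endoderm and each of hESC, mesoderm and ectoderm; points are the 4 libraries of a group and lines are group means. In each panel all 4 endoderm libraries lie above every library of the other 3 groups.

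Probes of the same gene gave a check on the values of genes with several probes. On the panel 60 genes had 1 probe and so no such check. Among them were NPPB, EOMES, FOXA2, FOXA1, SOX7, DIO3, FRZB, DUSP6, MKI67 and NR5A2. Of 903 probes tested singly, 706 were called (78.2%), 347 higher (38.4%) and 359 lower (39.8%), in edgeR with Benjamini-Hochberg adjustment. Among 322 genes with several tested probes, all probes were called in 1 direction for 210, some but not all for 70, and none for 37. Probes of 5 genes (BBS9, SLC16A1, TMSB15A, TPM1 and TUBB2B, named after their values were seen) were called in opposite directions. The median spread between the lowest and highest probe of a gene was 0.43 on the log2 scale. SOX17 and GATA6 had all 3 probes called higher, and so had LEFTY1 and LEFTY2.

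Endoderm replicate 3 correlated less with the other endoderm libraries (Pearson's r 0.985 to 0.986) than these did among themselves (0.992 to 0.993). The correlations used log2 raw reads across probes, which are not independent replicates. Of the 331 calls, 327 held in the same direction without it, and ATR, HSP90AA1, PAX3 and SYN1 were lost. EOMES then stood at 291 ± 36.7 CPM in endoderm and FOXA2 at 242 ± 21.5 CPM (SD, n = 3).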

How the data were processed

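RNA of 16 control libraries (4 each of hESC, endoderm, mesoderm and ectoderm) was measured by RASL-Seq. The authors deposited raw read counts per probe, which are not normalized, and per the submitters' processing notes DESeq2 and the build hg38 were used, with versions and roles not given. The aligner is not given in the sources used here. The merged table was identical to all 48 single-sample files, and 16 columns that belong to no sample of the series were not used.

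Counts were summed per gene, filtered with filterByExpr, scaled by TMM and tested with edgeR 4.0.16 (robust quasi-likelihood, R 4.3.3, limma 3.58.1) over the 16 libraries, which share 1 estimate of spread, with Benjamini-Hochberg adjustment at 0.05. Probes were tested in the same way. CPM use the TMM library sizes, log2 CPM a prior count of 2, and SE is that of the difference between the means of log2 CPM of 4 and 4 libraries. For a gene at 0 in all libraries of a group, the fold is a bound against 3 reads per library. With 1 to 3 reads at most in a library, it is a ratio of pooled counts with an exact 95% interval. The scripts were tested on simulated data. No pair of replicates agreed within sampling noise (chi-square per degree of freedom 7.85 to 76.9 in endoderm and 8.90 to 54.5 in hESC).

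Named genes were the 15 largest increases and decreases among genes averaging 50 or more reads in the group where they are higher, the leading and defining members of each list, and the 8 genes with the largest smallest difference from the other cultures. Members, lists and tests were chosen with earlier results of these data known. Alternatives were other scalings, filters, DESeq2 1.42.0, the most abundant probe per gene, a replicate block, the 8 libraries alone, each library left out in turn and, chosen after seeing the data, LEFTY1 and LEFTY2 left out. Python 3.11.15 and matplotlib 3.10.9 served for the figures. Gene positions and promoters are from RefSeq (GRCh38.p14), where 442 genes matched by symbol and 10 by transcript and 327 had a promoter entry. Some single genes are not reported here, though they remain in the counts.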

Additional observations from a re-analysis of the deposited data

Results flagged for a closer look

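In 19 of 253 tests of a named gene within a group of 4 libraries (7.51%, where chance flags about 5%), 1 library stood apart from the other 3. Values are log2 CPM. Among hESC libraries, replicate 1 was high for CD9 (11.98 against 11.65 to 11.69) and HSP90AB1 (16.41 against 15.78 to 15.84). It was low for DNMT3B (11.39 against 11.63 to 11.68), HLA-B (3.56 against 3.94 to 3.95) and ZIC2 (10.57 against 10.67 to 10.68). Replicate 2 was low for SYT6 (6.86 against 7.00 to 7.03) and replicate 3 low for FOXA2 (0.23 against 1.74 to 1.86) and EIF5A (13.997 against 14.14 to 14.16). Replicate 4 was low for EFEMP1 (8.94 against 9.10 to 9.12) and FOXA1 (5.58 against 5.89 to 5.94).

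Among endoderm libraries, replicate 1 was high for EFEMP1 (3.16 against 2.29 to 2.43) and LECT1 (2.32 against 0.48 to 0.69), and replicate 2 was high for NODAL (8.04 against 7.92 to 7.93). Replicate 3 was high for CD9 (8.90 against 8.58 to 8.61) and for LDHA, which encodes lactate dehydrogenase (11.44 against 10.66 to 10.76), and low for BBC3 (8.53 against 8.66 to 8.68). Replicate 4 was low for ACTB (16.37 against 16.71 to 16.74), NES (8.90 against 9.16 to 9.21) and SESN3 (6.59 against 6.94 to 6.97).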

How the results depend on the processing

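Of 157 results for named genes, 125 kept their direction and side of the threshold in every alternative run. The counts of calls stayed within 1.5 times the main ones except when at least 10 reads were required in every library, which left fewer genes and probes to test: 213 of 247 genes against hESC, 208 against mesoderm, 209 against ectoderm and 400 of 510 probes. Leaving out 1 library gave 324 to 332 calls against hESC, 315 to 326 against mesoderm, 329 to 341 against ectoderm and 687 to 697 probes, and between 312 and 327 of the 331 hESC calls were kept. DESeq2 called 327 genes and gave LEFTY1 and LEFTY2 no adjusted p.

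Libraries of the same replicate number showed no clear pairing. Their correlations of deviations were 0.06, -0.10, -0.02 and 0.17, against -0.10 to 0.19 for libraries of different numbers. So few libraries cannot exclude a pairing. With the replicate block 337 genes were called against hESC, 331 against mesoderm and 338 against ectoderm, and 720 probes.

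Some changes reversed, and the cause was not tested. With upper quartile factors the log2 fold changes were -0.25 for GDF15, -0.016 for NRCAM, -0.38 for SMAD1, -0.17 for SOX7, -0.29 for SPRY2, -0.17 for TXNRD1, -0.30 for HSP90AA1, -0.12 for TNFRSF10B, -0.45 for XPC and -0.13 for ZIC2. With library totals alone they were -0.28, -0.041, -0.42, -0.20, -0.33, -0.21, -0.34, -0.17, -0.49 and -0.18 in the same order. When LEFTY1 and LEFTY2 were left out and library totals alone were used, none of these genes reversed. The median log2 fold change over all tested genes was then 0.18 (182 higher, 147 lower). Values given below with LEFTY1 and LEFTY2 left out are from the TMM fit. Scaling on reference genes gave 0.65 for ATF4, 0.30 for CYP2B6, 0.54 for HLA-B, 0.64 for L1TD1, 0.13 for SLC30A1, 0.62 for SNAI2 and 0.10 for CSRP1. The most abundant probe per gene gave 0.066 for ATF4, 0.18 for CYP2B6, 0.15 for L1TD1 and 0.35 for SNAI2. SMAD1 was at -0.0029 with no filter, -0.13 with at least 10 reads and -0.10 with LEFTY1 and LEFTY2 left out, and SPRY2 at -0.036 and -0.0041 and HSP90AA1 at -0.046 and -0.014 in the last 2. XPC, whose change was near 0, was at -0.0012 with DESeq2's size factors, -0.0008 with DESeq2, -0.07 with no filter, -0.19 with at least 10 reads, -0.17 with LEFTY1 and LEFTY2 left out and -0.026 with the 8 libraries. Leaving out 1 library also turned some signs, with ranges of -0.013 to 0.27 for GDF15, -0.13 to 0.18 for SMAD1, -0.43 to 0.053 for SNAI2, -0.024 to 0.48 for SOX7, -0.060 to 0.21 for HSP90AA1, -0.22 to 0.023 for XPC and -0.025 to 0.17 for SPRY2. Calls that rest on very few reads are limited by depth. Endoderm replicates 1 to 4 held 0, 1, 1 and 3 reads of FOXF1, 3, 0, 1 and 0 of PAX3 and 4, 3, 3 and 3 of NR2F1.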

Other observations

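Some groups of genes were put together after their values were seen, so their counts are descriptions only. Of all 387 genes tested, 46.5% rose and 39.0% fell in the main fit, with a median log2 fold change of 0.21. All 4 chaperone genes of the endoplasmic reticulum rose, CALR by 1.40 and DNAJC3 by 1.71 on the log2 scale beside HSPA5 and HSP90B1, with a median of 1.94. Of 8 chaperone genes of the cytosol and mitochondria 6 fell, 1 rose and 1 was not called, with HSPD1 at -1.82 and HSP90AB1 at -1.51. All 8 fell with upper quartile factors and with library totals alone, while 4 rose and 3 fell with scaling on reference genes. HSP90AA1, the gene that rose, lost its call without each of hESC replicates 2, 3 and 4 and endoderm replicates 2 and 3. Of 7 genes of ribosomal proteins and translation factors 5 fell and 2 were not called, with EIF5A at -1.54 and RPL13A at -0.93. With scaling on reference genes 2 of the 7 rose and only 1 fell. All 4 glycolytic enzyme genes fell, among them ALDOC by 3.41 and LDHA by 1.12, with a median of -1.52. The LDHA call was lost with scaling on reference genes and with the most abundant probe per gene. The other 2 genes of this group, GAPDH and PGK1, are themselves reference genes. That scaling therefore takes out part of their fall by construction and cannot show whether the group fell.

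Genes of the actin cytoskeleton rose in 6 of 7 cases, with TAGLN at 5.49, PALLD at 3.78 and TMSB10 at 2.24, and CSRP1 was not called (called lower with upper quartile factors, with library totals alone and, at -1.30, without endoderm replicate 2). Antioxidant and iron genes rose in 7 of 10 cases and none fell, with FTH1, a ferritin chain, at 1.81, but with upper quartile factors and with library totals alone 4 rose and 4 fell, and with scaling on reference genes all 10 rose. Targets of p53 went apart, with 4 higher (BTG2 at 5.33, GADD45A, BBC3 at 2.11 and TNFRSF10B), 5 lower (CDKN1A, FAS by a ratio of 4.89 with a 95% counting interval of 1.97 to 14.5, DDB2, SESN3 and TNFRSF10A) and XPC not called. The calls of TNFRSF10B, TNFRSF10A and FAS were each lost under at least 1 alternative, and 3 genes rose and 6 fell with upper quartile factors and with library totals alone, against 5 and 4 with scaling on reference genes.

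A few genes that did not pass the filter on low counts had reads mainly in 1 group and were not tested. SHH, a secreted morphogen, had no hESC read and 5.91 ± 2.25 CPM in endoderm (SD, n = 4), at least 4.73-fold higher. PPARG stood at 0.927 ± 0.956 CPM in hESC and 7.52 ± 4.79 in endoderm, KLF2 at 0.470 ± 0.544 and 5.10 ± 1.68, and SLC6A4 at 0.206 ± 0.247 and 5.31 ± 1.82 CPM (SD, n = 4 each). SLC17A6, a vesicular glutamate transporter, had 3.14 ± 0.962 CPM in hESC (SD, n = 4) and no read in endoderm, at least 2.82-fold lower.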
